A study of Bos taurus with 6 samples.

Results

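The genes described here encode the muscle-type actins ACTA1, ACTA2, ACTC1 and ACTG2, the tropomyosins TPM1 and TPM2, the myosin chains MYL9 and MYH11, and the actin-binding proteins TAGLN and CNN1. They were chosen by gene name, with the butyrate-against-control FPKM of these cultures already known, and are 10 of the 32183 entries in each expression table. Each name occurred on a single entry. Since the choice was made from this contrast, the values of the 10 genes are given as a description, without a test. FPKM is a fragment count divided by transcript length and by the number of mapped fragments, so levels of different genes can be set side by side.

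Rumen epithelial primary cells (REPC) were grown from the rumen of 1 Holstein bull calf, 2 weeks old and raised on milk replacer. RNA was sequenced from 3 cultures kept for 24 h in medium with 5 mM butyrate and from 3 control cultures, and each group carries replicate numbers 1 to 3. No genetic change, sort or other treatment is named for either group. The study calls the cultures biological replicates, but all came from the same calf, so the spread between them holds no difference between animals and may in part be technical.

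Contractile force in cells comes from myosin II sliding along actin filaments. Among the vertebrate actin genes, ACTA1 is named for skeletal muscle, ACTC1 for cardiac muscle, ACTA2 for vascular smooth muscle and ACTG2 for enteric smooth muscle, whereas ACTB and ACTG1 encode the cytoplasmic actins of all cells. Tropomyosins, calponins and transgelins bind along the filament, and the smooth muscle set of these genes is also switched on in myofibroblasts and in many cultured cells that form stress fibres. Much of the set is transcribed through serum response factor (SRF) and its partners of the myocardin family. Butyrate is a fatty acid made by rumen fermentation and an inhibitor of histone deacetylases.

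Between 16051 and 17510 entries were above 0 in each culture, and total FPKM per culture ran from 678035 to 681912 for the controls and from 619401 to 629037 for the treated cultures. The tables hold no read counts, so the number of reads behind each value was not computed here. Differences between groups were computed on log2(FPKM + 0.1) over the 15813 genes whose mean FPKM reached 0.1, and this scale makes changes at low FPKM look smaller. The median log2 difference of all tested genes was 0.10, and it was 0.22 with the values rescaled to a fixed sum (TPM) and -0.05 with quantile normalization, so small differences depend on the scaling. Epithelial markers were present, with KRT17 at a mean FPKM of 3859 and KRT8 at 1380 in control. Mesenchymal markers were present as well, with VIM at 2464, FN1 at 1217 and COL1A1 at 1149, so the cultures carried transcripts of both kinds. These are among the highest of their lists, and other markers were low in control. EPCAM was at 0.54 and KRT4 at 1.51 for epithelium, and PDGFRA was at 0.306 and LUM at 0.149 for mesenchyme. All of these markers were named after their values were seen. In bulk RNA, fewer cells of a type and less RNA per cell cannot be told apart.

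ACTA2 had the highest FPKM of the 4 muscle-type actins and was lower after butyrate. Its FPKM was 2637, 2802 and 2817 in control cultures 1 to 3 and 1030, 838 and 1150 in butyrate cultures 1 to 3. The groups did not overlap, and butyrate culture 2 was the lowest of all 6. The mean went from 2752 ± 99.7 (SD, n = 3) to 1006 ± 157 (SD, n = 3), a log2 difference of -1.46 with a standard error (SE) of 0.10, or 2.76-fold lower. The gene lies on chromosome 26 from 10662359 to 10714982 in the UMD3.1 coordinates of the tables. Its entry shares 789 bases with that of FAS, a death receptor gene, which had FPKM of 17.3 to 18.4 in control and 7.40 to 9.11 after butyrate, far below ACTA2 in every culture.

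ACTC1 and ACTA1, the striated muscle actins, were present at lower FPKM and showed the largest log2 differences of the 10 genes. ACTC1, on chromosome 10 from 30361774 to 30367052, was at 36.2, 42.8 and 34.2 in the control cultures and at 2.21, 2.66 and 2.46 in the butyrate cultures. The groups were far apart, and the means were 37.7 ± 4.49 and 2.44 ± 0.227 (SD, n = 3 each). The log2 difference was -3.89 (SE 0.12), or 14.9-fold lower. ACTA1, on chromosome 28 from 419150 to 421910, was at 119.5, 114.2 and 114.7 in control and at 15.5, 13.8 and 14.3 after butyrate. The 3 cultures of each group lay close together for this gene, with means of 116.1 ± 2.96 and 14.5 ± 0.856 (SD, n = 3 each). The log2 difference was -2.99 (SE 0.06), or 7.96-fold lower.

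ACTG2 differed little. Its FPKM was 423, 434.3 and 428.5 in control and 382.1, 365.6 and 409.7 after butyrate, on chromosome 11 from 10717557 to 10740084. The groups did not overlap as deposited, and the mean went from 428.6 ± 5.65 to 385.8 ± 22.3 (SD, n = 3 each), a log2 difference of -0.15 (SE 0.05). Scaling decided its direction, since the log2 difference was -0.03 after rescaling to TPM and 0.06 with quantile normalization, and in both cases the groups overlapped. ACTG2 was therefore the muscle-type actin whose level was nearest to that of control, while ACTA2, ACTA1 and ACTC1 were lower under each of these scalings.

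The 6 actin genes were compared as shares of their summed FPKM. The 4 muscle-type actins made up 19.1%, 19.1% and 19.0% of it in control and 11.2%, 11.0% and 12.5% after butyrate, a difference of -7.52 percentage points between the means of 19.1% ± 0.0548 and 11.6% ± 0.788 (SD, n = 3 each). ACTA2 went from 15.7% to 8.24% of all actin FPKM, ACTA1 from 0.665% to 0.12% and ACTC1 from 0.216% to 0.0202%. The share of ACTG2 was 2.40% to 2.51% in control and 3.0% to 3.29% after butyrate, so it was higher while those of the other muscle-type actins were lower. The shares of ACTB and ACTG1 were higher as well, from 60.6% to 66.7% and from 20.3% to 21.7%. Within the muscle-type actins alone, ACTA2 went from 82.5% ± 0.493 to 71.2% ± 2.24 and ACTG2 from 12.9% ± 0.269 to 27.6% ± 2.11 (SD, n = 3 each). Their summed FPKM was 3335 ± 103 in control and 1409 ± 179 after butyrate (SD, n = 3 each). A share needs no scaling between cultures. The coding sequences of the actins are nearly alike and only uniquely mapped reads were used, so reads from shared stretches may be missing, and the level of each actin is uncertain to that extent.

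**Figure D1:**
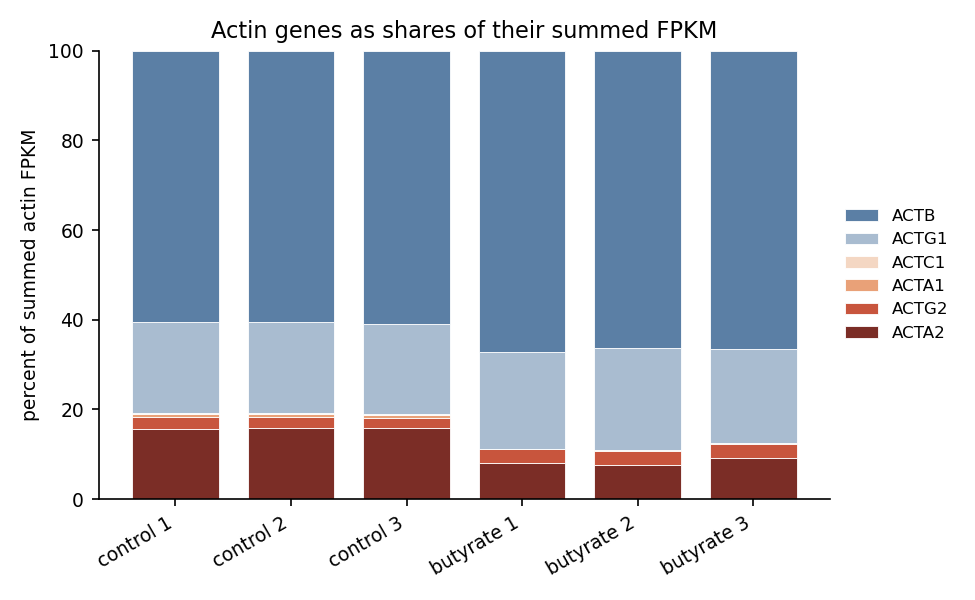
Each bar is 1 culture and is divided by the share, in percent of their summed FPKM, of the 6 actin genes. ACTA2, the lowest block, spans 15.7% to 15.8% in the control cultures and 7.55% to 9.09% in the butyrate cultures, while ACTA1 and ACTC1 are thin bands in control and hardly visible after butyrate.

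The cytoplasmic actins are no members of the set and were tested. ACTB, the entry with the highest FPKM of the 6 actins, fell from 10600 ± 369 to 8114 ± 657 (SD, n = 3 each), a log2 difference of -0.39 (SE 0.06, limma, Benjamini-Hochberg adjusted p = 0.000447). ACTG1 fell from 3546 ± 95.4 to 2640 ± 114 (SD, n = 3 each), by 0.43 on the log2 scale (SE 0.04, limma, Benjamini-Hochberg adjusted p = 2.67e-05). Both calls were kept after rescaling to TPM, but quantile normalization left ACTB at a difference of 0 and without a call. Quantile normalization sets values by rank within each culture. A gene that keeps its rank then shows no difference whatever its FPKM, so this 0 does not decide whether ACTB fell. As deposited, both cytoplasmic actins thus lay between ACTG2 and ACTA2 in the size of their difference.

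TPM1 and TPM2 encode tropomyosins, the coiled-coil proteins that lie in the groove of the filament. TPM1, on chromosome 10 from 47056201 to 47072869, was at 1439, 1438 and 1402 in control and at 1038, 1021 and 1055 after butyrate. The means were 1426 ± 20.7 and 1038 ± 17.1 (SD, n = 3 each), and the log2 difference was -0.46 (SE 0.03). TPM2, on chromosome 8 from 60267447 to 60274934, was at 1308, 1327 and 1292 in control and at 678.1, 669.6 and 770.3 after butyrate. The groups of both genes were apart, and TPM2, at 1.86-fold lower, differed more than TPM1, at 1.37-fold lower. The log2 difference of TPM2 was -0.89 (SE 0.05), between means of 1309 ± 17.6 and 706 ± 55.9 (SD, n = 3 each). Among the 4 tropomyosin genes, TPM1 went from 32.8% to 36.6% of the summed FPKM and TPM2 from 30.1% to 24.9%, and together they held 62.8% ± 0.365 in control and 61.5% ± 0.336 after butyrate (SD, n = 3 each). The relatives TPM3 and TPM4, which occur in non-muscle cells, fell as well, with log2 differences of -0.64 (SE 0.04) and -0.54 (SE 0.05) and Benjamini-Hochberg adjusted p-values in limma of 1.68e-06 and 1.85e-05. TPM1 and TPM2 were thus lower together with TPM3 and TPM4. The FPKM is given per gene, so the transcript forms of each gene were not told apart.

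MYL9 encodes the regulatory light chain of smooth muscle and non-muscle myosin II. Its FPKM was 931.3, 927 and 945.9 in control and 668.8, 613.1 and 684.7 after butyrate, on chromosome 13 from 66306259 to 66314230. The groups did not overlap, and the mean went from 934.7 ± 9.87 to 655.5 ± 37.6 (SD, n = 3 each), a log2 difference of -0.51 (SE 0.05). Its share of the 3 regulatory light chain genes was 39.8% ± 0.455 in control and 34.6% ± 1.11 after butyrate (SD, n = 3 each). MYL12B, a close relative that encodes a non-muscle regulatory chain, rose from 49.8 ± 2.14 to 146.6 ± 11.9 (SD, n = 3 each), with a log2 difference of 1.55 (SE 0.07, limma, Benjamini-Hochberg adjusted p = 3.57e-07). MYL12A, at 1365 ± 25.1 in control and 1091 ± 49.5 after butyrate (SD, n = 3 each), remained the most abundant of the 3.

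MYH11, the smooth muscle myosin heavy chain and the member most restricted to that tissue, was near the floor of detection. Its FPKM was 0.682, 0.973 and 0.331 in control and 0.0793, 0.0703 and 0.0791 after butyrate, on chromosome 25 from 14217719 to 14343745. The control cultures differed among themselves by more than for any other member, with a coefficient of variation of 48.6%, and the confidence bounds deposited with its FPKM had half-widths of 35.0% to 115% of the value. The log2 difference was -2.02 (SE 0.42), and it was between -2.83 and -0.61 with other pseudocounts and scalings, so its size is not known closely. The entry shares 19525 bases with that of NDE1, a centrosome gene at FPKM of 24.1 to 31.1, and whether the counting used strand is not given in the sources used here. Reads of one gene may therefore have been counted for the other.

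MYH11 made up 0.315% ± 0.145 of the FPKM of the 4 myosin II heavy chain genes in control and 0.043% ± 0.00509 after butyrate (SD, n = 3 each). The non-muscle chains MYH9 and MYH10 supplied nearly all of it. MYH9 was at 111.6 ± 8.74 and 107.4 ± 20.9 (SD, n = 3 each) with no call, and the sign of its difference of -0.07 (SE 0.13) turned with rescaling to TPM, with quantile normalization and without butyrate culture 2. MYH10 fell from 94.5 ± 5.98 to 65.7 ± 11.2 (SD, n = 3 each), by 0.54 on the log2 scale (SE 0.11, limma, Benjamini-Hochberg adjusted p = 0.00325). MYH14, a further non-muscle chain known from epithelia, rose from 0.734 ± 0.451 to 6.78 ± 0.568 (SD, n = 3 each), with a log2 difference of 3.20 (SE 0.38, limma, Benjamini-Hochberg adjusted p = 0.000118). The low-level smooth muscle and epithelial chains thus went opposite ways. The essential light chain MYL6B rose too, by 1.79 (SE 0.08, limma, Benjamini-Hochberg adjusted p = 3.42e-07), from an FPKM of 8.85 ± 0.507 to 30.8 ± 0.914 (SD, n = 3 each). MYL6, the far more abundant essential light chain, fell from 2835 ± 116 to 2344 ± 168 (SD, n = 3 each). Its log2 difference was -0.28 (SE 0.05, limma, Benjamini-Hochberg adjusted p = 0.00231), and -0.15 after rescaling to TPM and -0.11 with quantile normalization.

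TAGLN, or SM22, is an actin-bundling protein used as an early marker of smooth muscle. It was the most abundant of the 10 genes in both groups, with FPKM of 3031, 3170 and 3022 in control and 2054, 1816 and 2065 after butyrate, on chromosome 15 from 28318369 to 28323667. The means were 3074 ± 83.2 and 1978 ± 141 (SD, n = 3 each), and the log2 difference was -0.64 (SE 0.05), or 1.56-fold lower. Of the summed transgelin FPKM it held 64.4% ± 1.09 and 61.0% ± 1.01 (SD, n = 3 each), a smaller shift than that of the calponins. TAGLN2 fell with it, from 1699 ± 42.3 to 1245 ± 39.3 (SD, n = 3 each), by 0.45 on the log2 scale (SE 0.04, limma, Benjamini-Hochberg adjusted p = 1.17e-05). TAGLN3, known from neurons, rose from FPKM of 0.955, 1.61 and 0.285 to 16.5, 17.0 and 15.5, a log2 difference of 4.21 (SE 0.46, limma, Benjamini-Hochberg adjusted p = 6.76e-05).

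CNN1, the calponin of differentiated smooth muscle, binds actin and inhibits the myosin ATPase. Its FPKM was 798.6, 822.5 and 792.9 in control and 216.3, 192.7 and 239.7 after butyrate, on chromosome 7 from 17106393 to 17114224. The groups were far apart, with means of 804.7 ± 15.7 and 216.2 ± 23.5 (SD, n = 3 each), a log2 difference of -1.90 (SE 0.07) or 3.73-fold lower. The calponin family changed its make-up. CNN1 held 63.0% to 64.5% of the calponin FPKM in the control cultures and 27.7% to 32.1% in the butyrate cultures, while CNN3 held means of 18.4% ± 0.467 and 49.9% ± 2.32 (SD, n = 3 each). CNN3 rose from 231.7 ± 5.40 to 358.4 ± 11.3 (SD, n = 3 each), by 0.63 on the log2 scale (SE 0.04, limma, Benjamini-Hochberg adjusted p = 3.06e-06). CNN2 fell, from 224.4 ± 7.70 to 143.7 ± 6.93 (SD, n = 3 each), with a log2 difference of -0.64 (SE 0.05, limma, Benjamini-Hochberg adjusted p = 8.93e-06). The most abundant calponin was thus CNN1 in every control culture and CNN3 in every butyrate culture. CNN3, TAGLN2, MYL12A and MYL6 were named after their values were seen, so that each family is complete.

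**Figure D2:**
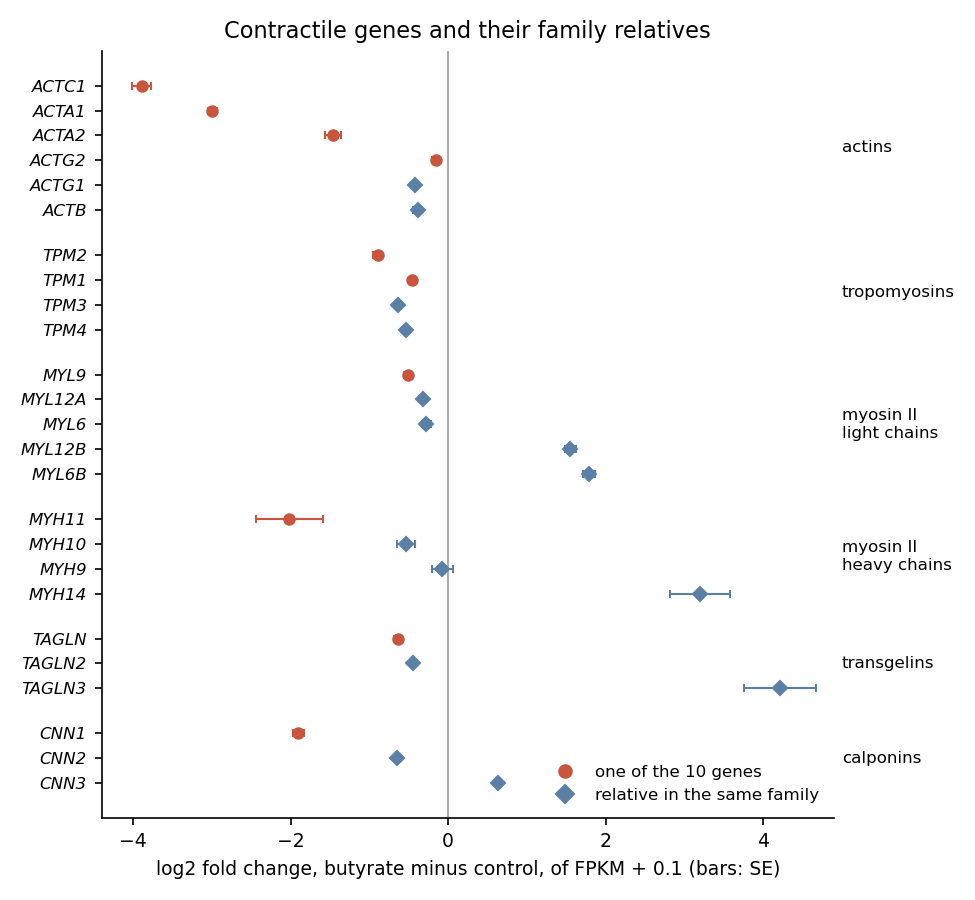
Each point is the log2 difference in FPKM + 0.1, butyrate minus control, with its standard error, for the 10 genes (circles) and their relatives (diamonds), arranged by family. All circles lie left of 0 on this scale, ACTG2 at -0.15 turning to 0.06 with quantile normalization, while TAGLN3, MYH14, MYL6B, MYL12B and CNN3 lie to the right.

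In control, the order of mean FPKM was TAGLN, ACTA2, TPM1, TPM2, MYL9, CNN1, ACTG2, ACTA1, ACTC1 and MYH11, and no neighbours in this order overlapped between cultures. TAGLN ranked 10 and ACTA2 16 among all 32183 entries, and 7 of the 10 genes were within the first 285. After butyrate, TAGLN ranked 25, ACTA2 67 and CNN1 532, and ACTC1 moved from rank 2820 to 10266. The order after butyrate was TAGLN, TPM1, ACTA2, TPM2, MYL9, ACTG2, CNN1, ACTA1, ACTC1 and MYH11. The values of TPM1 and ACTA2 overlapped there, as did those of TPM2 and MYL9. CNN1 passed from above ACTG2 to below it, with no overlap in either group. The 10 genes together made up 1.60% ± 0.0219 of all FPKM in control and 0.962% ± 0.0674 after butyrate (SD, n = 3 each).

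**Figure D3:**
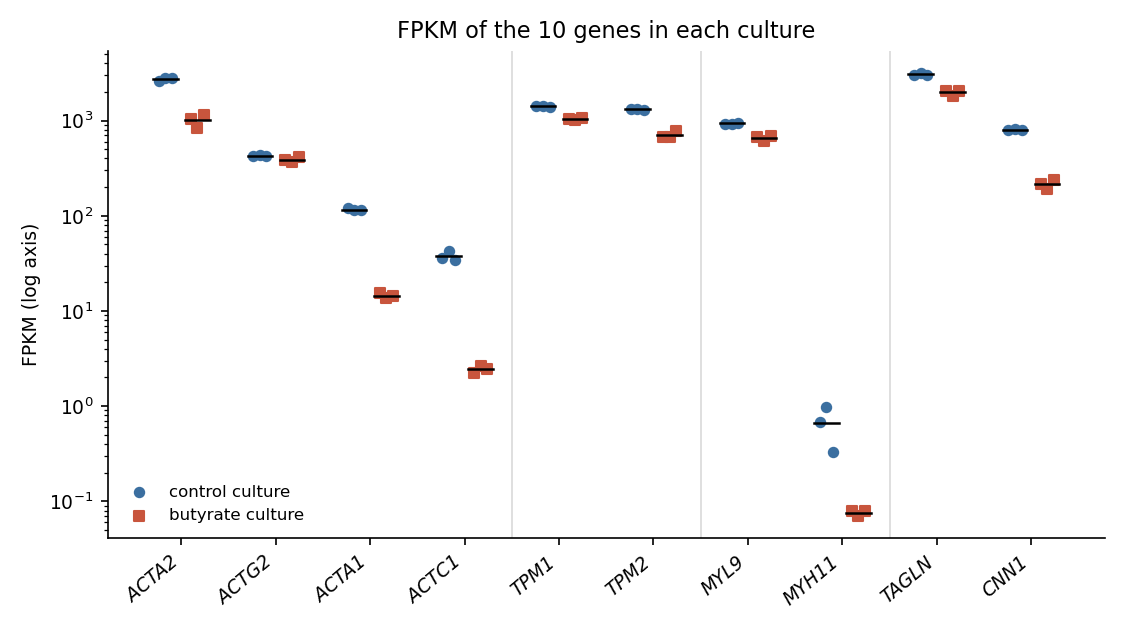
Points are the FPKM of each of the 10 genes in the 3 control and 3 butyrate cultures on a log axis, with a line at each group's mean, and grey lines part actins, tropomyosins, myosin chains and actin-binding proteins. The groups are far apart for ACTA1 and ACTC1, close for ACTG2, and widest within control for MYH11.

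All 10 genes passed the filter on low values, and in all 10 the butyrate values lay below the control values, a count that fell to 9 after rescaling to TPM or quantile normalization because ACTG2 then overlapped. Of the 15813 tested genes, 28.9% had all butyrate values below all control values and 36.1% had them all above. Since the genes were chosen with this contrast in view, nothing is read from their count. Their log2 differences ranged from -3.89 to -0.15 with a median of -1.18. They were beyond -2 for ACTC1, ACTA1 and MYH11, between -2 and -1 for CNN1 and ACTA2, and within -1 for the other 5. Butyrate culture 2 had the lowest value of its group in 9 of the 10 genes, against 28.8% of all tested genes. Culture 3 had the highest in 7, but the share of all tested genes with this trait was not computed, so nothing is read from that count. In ACTA2 the butyrate cultures spread over 838 to 1150, with a coefficient of variation of 15.6% against 3.62% in control.

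**Figure D4:**
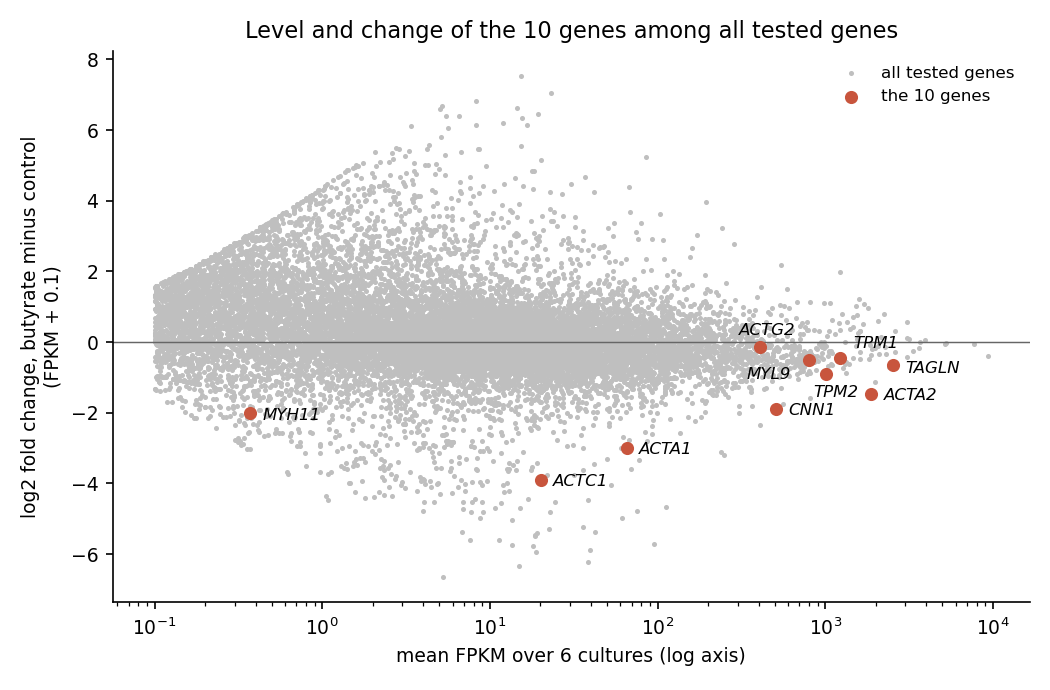
Each grey point is 1 of the 15813 tested genes, placed by its mean FPKM over the 6 cultures (log axis) and its log2 difference, and the 10 genes are marked. Most of the 10 sit at the high end of FPKM, with ACTA1, ACTC1 and MYH11 at lower levels and larger negative differences.

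Other genes of contraction and the actin cytoskeleton were taken from 8 lists, with 168 of 170 genes found in the tables and 138 tested. Of these, 50 rose and 50 fell at a Benjamini-Hochberg adjusted p under 0.05 in limma, with a median log2 difference of -0.03. Over all tested genes 32.5% rose and 25.9% fell by this rule. With the thresholds of the study for differentially expressed genes (DEGs), a p under 0.05 after Bonferroni correction together with a log2 difference beyond 2, 3 of the 138 rose and 3 fell, against 2.46% and 1.51% of all tested genes. At the adjusted p under 0.05 the counts of these other genes were equal with the values as deposited, whereas over all tested genes more rose than fell. The counts were 53 higher and 40 lower after rescaling to TPM, and 49 and 45 with quantile normalization.

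Of 25 other smooth muscle genes, 23 were tested, of which 8 rose and 5 fell. TGFB1I1, also called Hic-5, a focal adhesion protein, fell from 151.5 ± 7.81 to 22.1 ± 5.08 (SD, n = 3 each), with a log2 difference of -2.80 (SE 0.15, limma, Benjamini-Hochberg adjusted p = 1.21e-06). CRYAB, a small heat shock protein of muscle and other tissues, rose from 37.6 ± 6.03 to 307.1 ± 34.2 (SD, n = 3 each), by 3.03 (SE 0.12, limma, Benjamini-Hochberg adjusted p = 2.03e-07). DES, desmin, the intermediate filament protein of muscle, was low throughout, at 0.356, 0.0775 and 0.666 in control and 1.75, 1.89 and 1.16 after butyrate, and its rise of 2.07 (SE 0.51) had a Benjamini-Hochberg adjusted p of 0.00740 in limma. The smooth muscle genes outside the set thus moved in both directions. Over all tested genes 32.5% rose and 25.9% fell, so nothing about smooth muscle genes as a group is read from this split.

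Striated sarcomere genes were mostly silent, with 22 of the 41 listed below the filter and 8 at 0 in every culture. Of the 19 tested, 12 rose and 1 fell, with a median log2 difference of 1.47, and the split was 7 to 2 with quantile normalization. The 1 that fell, MYL4, an atrial light chain named after its values were seen, lost its call without control culture 1 or 3 or butyrate culture 2 or 3. Over all tested genes 32.5% rose and 25.9% fell. LMOD2 and some others that rose passed the filter only through their butyrate values. With a mean FPKM of at least 1 required, 6 rose and 0 fell, so the count and the median depend in part on the filter. TNNT1, slow skeletal troponin T, rose from FPKM of 0.566, 0.267 and 0.250 to 40.7, 38.4 and 36.1, a log2 difference of 6.45 (SE 0.24, limma, Benjamini-Hochberg adjusted p = 1.72e-07). TNNI3, cardiac troponin I, is the neighbouring entry on chromosome 18, from 62717574 to 62721351, and TNNT1 follows from 62722917 to 62735291. TNNI3 rose from 0.245, 1.32 and 0.512 to 7.18, 8.58 and 6.82, by 3.5 (SE 0.44, limma, Benjamini-Hochberg adjusted p = 0.000171). LMOD2, a leiomodin of striated muscle, was listed at 0 in all control cultures and at 0.465, 0.360 and 0.472 after butyrate. TNNT1 and TNNI3 therefore moved opposite to the striated muscle actins ACTA1 and ACTC1 in the same cultures. This is not read as a trait of all sarcomere genes, since 22 of the 41 listed were below the filter.

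Of 17 tested genes for SRF, the myocardin family and partner factors, 5 rose and 4 fell, against 32.5% and 25.9% of all tested genes. The split was 6 to 3 after rescaling to TPM and 4 to 5 with quantile normalization. The number that rose was 2 without butyrate culture 1 and 3 without control culture 2 or butyrate culture 2. SRF itself, the factor that binds the CArG boxes of contractile promoters, fell from 23.1 ± 1.03 to 12.2 ± 1.66 (SD, n = 3 each), a log2 difference of -0.93 (SE 0.11, limma, Benjamini-Hochberg adjusted p = 9.31e-05). MYOCD, myocardin, was barely detected, at 0.217, 0.115 and 0.222 in control and 0, 0.0458 and 0.105 after butyrate, with a difference of -0.96 (SE 0.47) that missed the threshold (limma, Benjamini-Hochberg adjusted p = 0.112) but passed it with quantile normalization, without the trend and without butyrate culture 3. MRTFA and MRTFB, the myocardin-related factors that respond to free actin, are listed under the older names MKL1 and MKL2. MRTFA was at 10.2 ± 0.178 and 9.06 ± 0.289 (SD, n = 3 each) and missed the threshold, with a difference of -0.16 (SE 0.09, limma, Benjamini-Hochberg adjusted p = 0.133). MRTFB had a difference of 0.35 (SE 0.13) and an adjusted p of 0.0471 in limma, a call that was lost in 9 of the alternatives, among them the fit without the trend and the fits without control culture 1 or 2 or any butyrate culture. SRF thus fell, whereas MRTFA did not pass the test. The list also holds cofactors and a repressor. FHL1, a LIM-domain protein of muscle, fell by 1.09 (SE 0.10, limma, Benjamini-Hochberg adjusted p = 2.23e-05), from 252.1 ± 6.03 to 119.5 ± 18.1 (SD, n = 3 each). KLF4, which represses smooth muscle genes, rose from 6.96 ± 0.993 to 12.3 ± 1.22 (SD, n = 3 each), by 0.82 (SE 0.13, limma, Benjamini-Hochberg adjusted p = 0.000626).

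**Figure D5:**
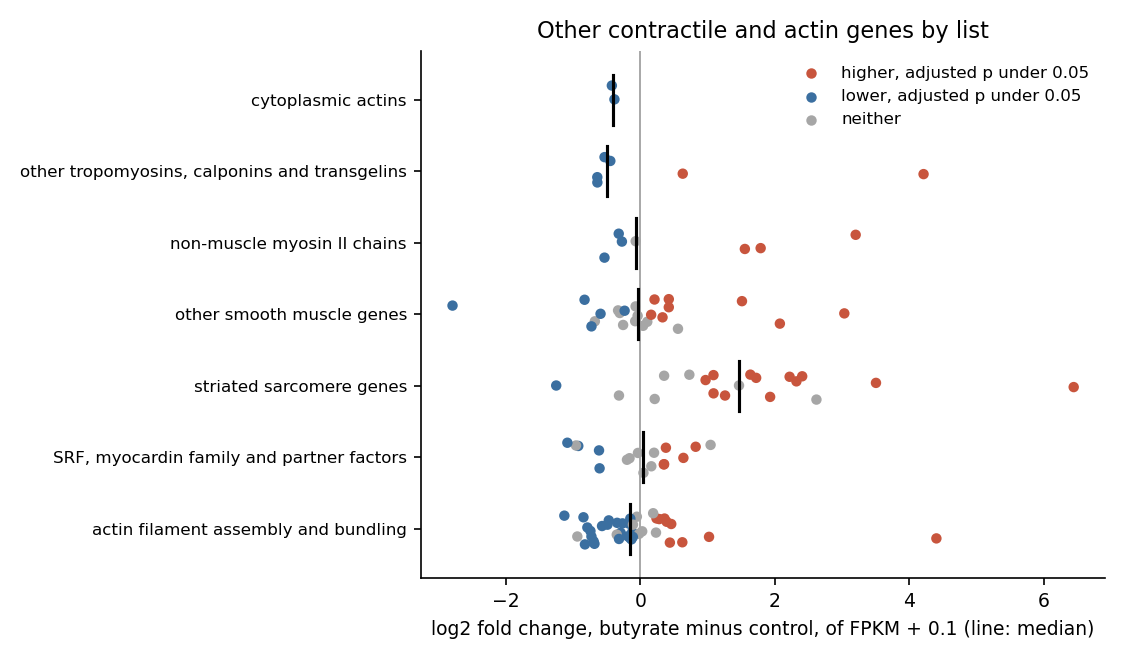
Each point is the log2 difference of a tested entry of 7 lists of other contractile and actin genes, coloured by its limma call at a Benjamini-Hochberg adjusted p under 0.05, with a black line at the median of the list's genes. Striated sarcomere genes lie mostly to the right, with a median of 1.47, some of them at an FPKM of 0 in every control culture. Both cytoplasmic actins lie to the left, though ACTB is at 0 with quantile normalization, which sets values by rank alone.

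Markers of the cell types the cultures could hold were read by the same limma call, and some stand in other lists as well. Of 20 markers of stratified epithelium 13 rose and 2 fell, and their summed FPKM was 7308 to 7593 in control and 10490 to 10800 after butyrate. Of 18 tested markers of fibroblasts and mesenchyme 15 rose and 2 fell, and their sum was 7041 to 7306 in control and 10420 to 11290 after butyrate. Over all tested genes 32.5% rose and 25.9% fell. Both sums were higher in the butyrate cultures, but a sum weighs abundant genes most, such as VIM at 2464 in control and 3641 after butyrate. The mesenchymal markers that fell were PRRX1, from 54.8 to 7.80, and TWIST2, from 26.1 to 19.0. The epithelial ones were KRT5, from 400.8 to 355.9, and KRT4, from 1.51 to 0.255. These genes were named after their values were seen. Of 11 tested markers of smooth muscle and pericytes 5 rose and 1 fell, with sums of 195.5 to 212.3 and 196.7 to 206.1. The levels of these markers were mixed. HSPB6 was at a mean FPKM of 142.1 in control and 120.6 after butyrate, SMTN at 23.5 and 24.1, LMOD1 at 19.4 and 24.4 and CSPG4 at 12.5 and 22.6, genes that were named after their values were seen. MYOCD and DES, like MYH11, were below an FPKM of 2 in every culture, whereas CNN1 was among the abundant genes. Of the same list KCNJ8 and ABCC9 were at 0 in every culture, and so were MYOG and MYF5 for skeletal muscle, CDH5 for endothelium and PTPRC for leukocytes. The 5 tested markers of skeletal and cardiac muscle (1 rose), the 3 of endothelium (2 rose) and the 2 of leukocytes (1 rose) had summed FPKM of at most 9.60 per list and culture. The part of cell composition in the values of the 10 genes was not tested.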

How the data were processed

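RNA-seq of 3 butyrate and 3 control REPC cultures was analysed. Per the study's methods and the submitters' processing notes, reads were trimmed with Trim Galore 0.4.1 and aligned with STAR, only uniquely mapped reads were kept, and the notes name the build UMD3.1. The authors deposited gene-level FPKM from Cufflinks with confidence bounds, and no counts, so no count test was run. Entries were joined between cultures by position and name.

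Log2(FPKM + 0.1) was fitted for the 15813 genes whose mean FPKM reached 0.1, with limma 3.58.1 (R 4.3.3, eBayes with trend). TNC and FOSL2, with failed estimates, were left out. Calls used a Benjamini-Hochberg adjusted p under 0.05, or the study's DEG thresholds. The script was tested on simulated data.

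The 10 genes and all gene lists were chosen with earlier results of these data known. Named besides them were ACTB, ACTG1, TPM3, TPM4, MYH9, MYH10, SRF, MYOCD, MRTFA, MRTFB and DES, and in each list the 3 called genes with the largest difference whose groups did not overlap. Alternatives were other pseudocounts, filters and scalings, no trend, a replicate block, and leaving out each culture. Older gene names came from RefSeq (ARS-UCD2.0). Promoter and protein sequences were not used here, and 1 of the 8 lists enters the pooled counts but is not reported here on its own.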

Additional observations from a re-analysis of the deposited data

How the results depend on the processing

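The 9 genes other than ACTG2 were lower after butyrate under every alternative run. The ACTG2 log2 fold change was -0.20 to 0.061 and turned positive, at 0.061, with quantile normalization. The MYH9 log2 fold change turned positive with quantile normalization (0.081), with rescaling to TPM (0.052) and without butyrate culture 2 (0.086). The muscle actin share of actin FPKM differed by -7.97 to -7.24 percentage points with a culture left out and by -7.22 with the lower bounds of the muscle-type and the upper bounds of the cytoplasmic actins. Those bounds shift control and butyrate cultures the same way, so the last value sets no limit on the difference. DEG counts depended on the setting, from 389 up and 238 down. Without a filter on low values 213 genes were up, and without the trend 213 were up and 141 down. With a culture left out, 100 to 232 were up and 122 to 159 down, and only the omission of butyrate culture 3 kept the number down within 1.5 times. The cause was not tested. Counts at the adjusted p under 0.05 stayed within 1.5 times, for all genes and for the other contractile genes, which had 41 to 53 higher and 40 to 50 lower. In single lists, 5 smooth muscle genes rose without the trend, without control culture 3 or without butyrate culture 1.

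The replicate block gave 226 genes up and 183 down, and 48 higher and 45 lower among the other contractile genes. Deviations of same-numbered cultures had correlations across genes of 0.0228, -0.00431 and 0.00177, so the numbers were not taken as pairs. MYH11 had a mean FPKM under 1 and could not be followed with that filter. Without counts, what depth limits could not be computed.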

Other observations

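Genes of actin filament assembly and bundling fell more often than they rose. Of 39 tested, 22 fell and 9 rose, and the split was 15 to 11 after rescaling to TPM and 16 to 12 with quantile normalization. By the same rule 25.9% of all tested genes fell and 32.5% rose with the values as deposited. More of all tested genes also rose than fell after rescaling to TPM, the opposite of this list. With quantile normalization more of all tested genes fell than rose, so the split of the list there goes the same way as the background. PFN1, profilin, which feeds actin monomers to growing ends, fell from 2725 ± 131 to 1243 ± 72.3 (SD, n = 3 each), a log2 difference of -1.13 (SE 0.05, limma, Benjamini-Hochberg adjusted p = 4.59e-07). GSN, gelsolin, which severs and caps filaments, rose from 157.9 ± 4.41 to 320.3 ± 4.29 (SD, n = 3 each), by 1.02 (SE 0.04, limma, Benjamini-Hochberg adjusted p = 1.98e-07). TMOD2, a tropomodulin that caps pointed ends, was at 0.0325, 0 and 0 in control and at 2.67, 2.15 and 1.91 after butyrate. It passed the filter on low values only through its butyrate values, so its test is not used here.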
